A study of Mus musculus with 2 samples.

Results

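The interferon-induced antiviral effectors Isg15, Usp18, Rsad2, Mx1, Mx2, Bst2, Isg20, Eif2ak2, Cmpk2 and Herc6 were followed in resting mouse macrophages. They were taken by gene symbol from the deposited table, which held all 10 of them among 16463 genes. Messenger RNA was profiled in bone marrow-derived macrophages, which are grown in culture from marrow precursors, of mice labelled C57BL/6J. The TKO library came from mice labelled mir-106a~363-/-, together with mir-106b~25-/- and mir-17~92 flox/flox, and Lyz2-Cre, so that paralogous microRNA clusters are targeted, and the WT library from mice with Lyz2-Cre alone. Both groups therefore carried Cre, a recombinase driven here by the lysozyme 2 locus of myeloid cells, and both were unstimulated after 5 days with conditioned medium of L929 fibroblasts. In TKO the mir-17~92 cluster was floxed and depended on that Cre, so its loss is limited to cells in which Cre acted. Each genotype had 1 library, and the labels do not say how many animals or cultures went into it, so no difference below has a replicate check.

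Type I interferons bind the receptor pair IFNAR1 and IFNAR2 and activate the kinases JAK1 and TYK2, which phosphorylate STAT proteins. With IRF9 these form a complex that binds interferon-stimulated response elements in promoters, and macrophages keep a low level of this signalling at rest. The effectors described here interfere with viruses at different steps. Isg15, Usp18 and Herc6 belong to a ubiquitin-like tagging system, Rsad2 and Cmpk2 act on nucleotides, and Mx1 and Mx2 are dynamin-like GTPases. Bst2 holds budding virus at the cell surface, Isg20 degrades RNA, and Eif2ak2 shuts down translation.

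The antiviral effectors were higher in TKO as a group, by amounts that ran from slight to more than 5-fold. All 10 had a log2 ratio of TKO over WT above 0 with a counting interval above 0, and the size rule called 9 higher and 0 lower. This rule asked for a ratio of at least 2-fold between scaled counts, a 95% interval that excluded no change and at least 20 counts in 1 library. Of the 11525 genes tested, 2.43% were higher by the same rule, 2.3% were lower and 4.73% were either. Of the same genes, 21.8% had an interval above 0 and 50.6% a log2 ratio above 0. The median log2 ratio of the 10 genes was 1.82, or 3.52-fold, against 0.0042 for all genes tested. The 10 genes were chosen with earlier results of these data known, so their direction is not independent evidence. At a threshold of 4-fold, 4 of the 10 genes were higher, namely Mx1, Usp18, Rsad2 and Isg15, where the share of all genes was 0.659%. At 1.5-fold 9 of the 10 were higher, where the share of all genes was 5.13%. Once the trend of the ratio against gene length was removed, 8 of the 10 were higher, where the share of all genes was 2.34%. The count was again 9 of 10 under the other settings tried on scaling and filtering. The share of all genes was then 2.27% with library totals, 2.35% with DESeq2 size factors, 2.29% with FPKM ratios, 1.89% with 1 added to FPKM, 2.3% with no count minimum, 1.77% with a minimum of 100 counts and 1.93% with a wider interval. Intervals cover counting error only. In RNA from a bulk culture, a difference in the number of cells of a type and a difference in RNA per cell cannot be told apart.

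Together the 10 genes held 8817 counts in TKO and 3620 in WT. That was 827 CPM, or counts scaled to the library total, in TKO (exact binomial 95% interval 810.2 to 845) and 333 CPM in WT (322 to 344), and the sum was 2.55-fold higher in TKO (2.45 to 2.65). Bst2 and Eif2ak2, the members with the most counts, made up 40.6% of the sum in TKO and 59.0% in WT. Without this pair, which was set aside after its values were seen, the sum over the other 8 genes was 5234 counts in TKO and 1484 in WT, 3.69-fold higher (3.48 to 3.91).

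**Figure D1:**
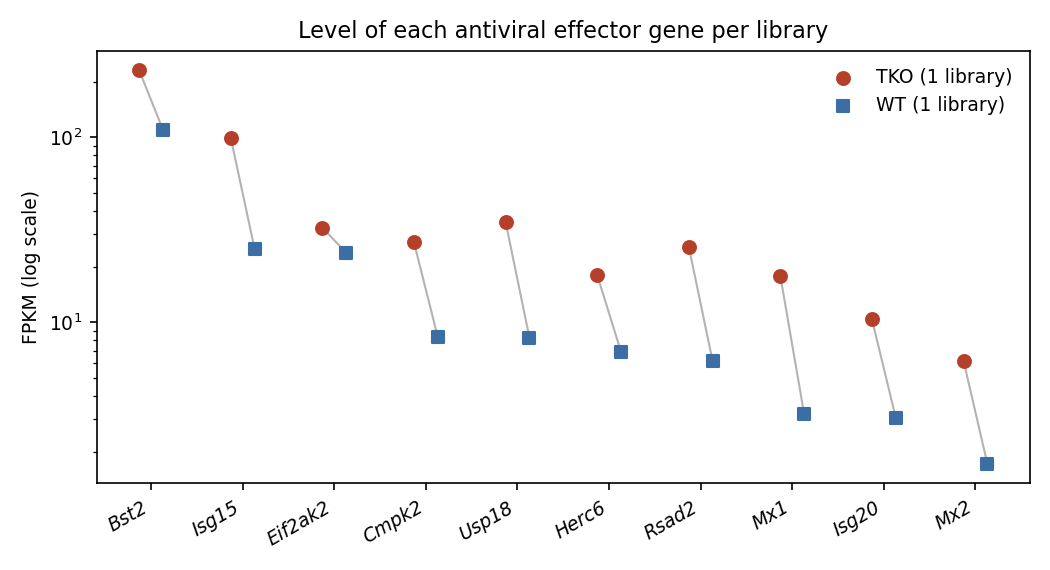
FPKM of each antiviral effector gene on a log axis, with 1 point for the TKO library (circle) and 1 for the WT library (square), ordered by the WT level. Every TKO point lies above its WT point. Bst2 and Isg15 are the most abundant in both libraries, Mx2 the least.

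Levels are compared between genes in FPKM, which is scaled for gene length and depth. Bst2 had the highest FPKM of the 10 genes in both libraries and Isg15 the next, while Isg20 and Mx2 were lowest in both. The span from the lowest to the highest member was 37.1-fold in TKO and 63.7-fold in WT. Bst2 alone accounted for 45.8% of the summed FPKM of the group in TKO and 55.9% in WT, and Isg15 for 19.8% in TKO and 12.7% in WT. Against all genes tested, Bst2 exceeded 97.4% of them in TKO and 94.7% in WT. Usp18 exceeded 79.8% of the tested genes in TKO and 40.9% in WT, and Mx1 63.9% in TKO and 20.2% in WT.

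**Figure D2:**
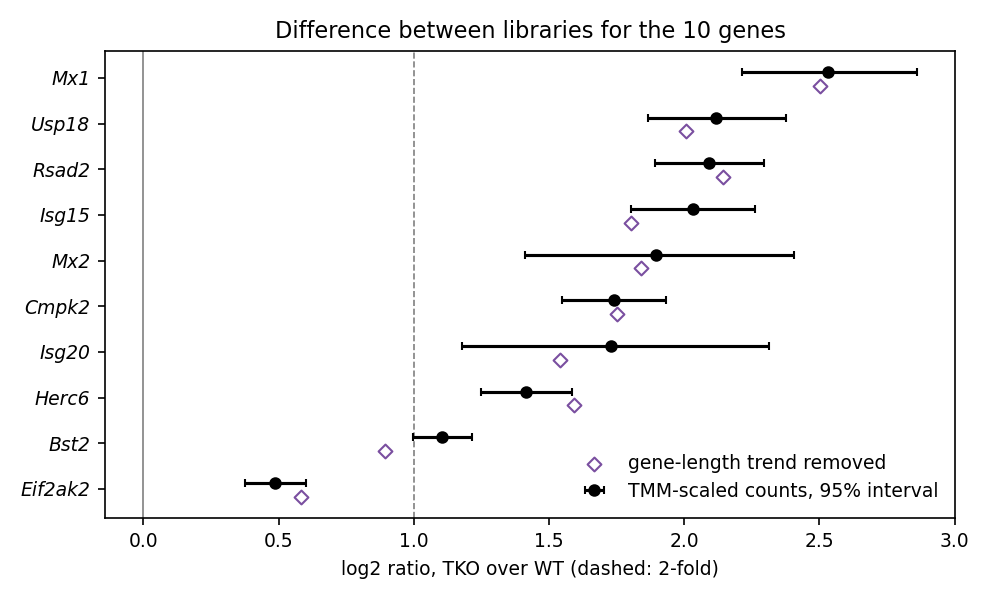
Log2 ratio of TKO over WT for each gene, from the largest at the top, with its 95% counting interval (black) and the value once its trend against gene length had been subtracted (diamonds). The dashed line marks 2-fold. Mx1 is largest at 2.53, Eif2ak2 smallest at 0.49, and Bst2 is at 1.11, or 0.89 with the trend removed.

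In order of their ratio the genes ran Mx1, Usp18, Rsad2, Isg15, Mx2, Cmpk2, Isg20, Herc6, Bst2 and Eif2ak2. The intervals of neighbours in this order overlapped for 7 of the 9 pairs. The exceptions were the step between Herc6 and Bst2 and the step between Bst2 and Eif2ak2. Of all 45 pairs of members, 24 had overlapping intervals. The wide interval of Isg20 overlapped that of Bst2, while that of Mx1 did not overlap those of Cmpk2 and Herc6. Of the 11525 genes tested, 41 had a larger ratio than Mx1, 97 a larger one than Cmpk2, 240 a larger one than Bst2 and 941 a larger one than Eif2ak2. With 2 libraries a gene's pattern is its ratio alone. The 5 genes outside the group whose ratio was nearest to the group's median, among genes with at least 100 counts, were Clmp, Ly6a, Ica1, Atp10d and 2210039B01Rik, with log2 ratios of 1.78 to 1.88.

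**Figure D3:**
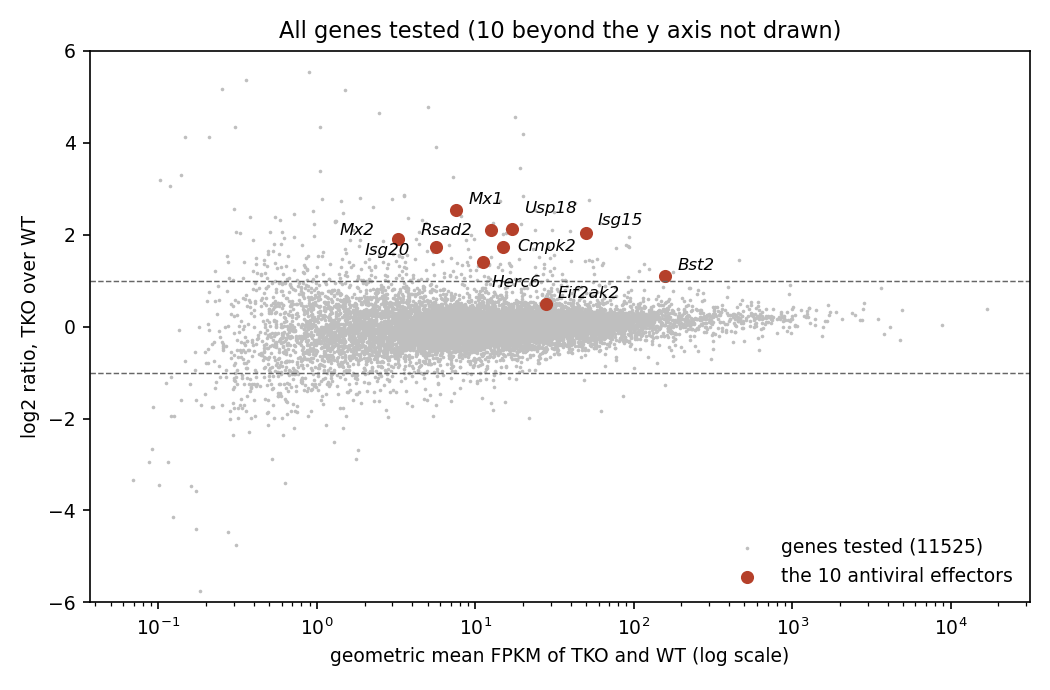
Log2 ratio of TKO over WT against the geometric mean FPKM of both libraries (log axis) for the 11525 genes tested, in grey, with the antiviral effectors in red. Dashed lines mark 2-fold, and 10 genes beyond a log2 ratio of 6 are not drawn. All of the red points except Eif2ak2 lie above the upper dashed line.

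Promoter sequence is shown because a shared promoter element is the textbook link between these genes. RefSeq windows on GRCm38.p6, the assembly behind mm10, of 250 bases before to 50 bases after each annotated start matched 7 of the 10 genes in 9 windows: Isg15, Herc6, Isg20, Bst2, Rsad2, Cmpk2 and Eif2ak2. Usp18, Mx1 and Mx2 were not matched. The letters GAAA, any 2 bases and GAAA again, the core of the interferon-stimulated response element, were searched for on both strands, with overlapping matches counted. They were present for 4 of the 7 genes, against 3.89% of the 8892 tested genes with a window. Counted by window, they were in 3.44% of all 32851 windows. Isg15 had 3 overlapping matches between positions -78 and -57 from its start, Bst2 had 2 between -130 and -115, and Rsad2 had 1, on the opposite strand, between -120 and -111. In Eif2ak2 the match lay after the start, at bases 19 to 28 of the transcript. Below, capitals mark the matched letters, and each sequence reads 5′ to 3′ on the strand of its gene, which is the minus strand for all 4.
Isg15, chr4:156200855-156200916: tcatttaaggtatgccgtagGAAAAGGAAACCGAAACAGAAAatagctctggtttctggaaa
Bst2, chr8:71537567-71537622: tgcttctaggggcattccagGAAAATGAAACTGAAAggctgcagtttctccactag
Rsad2, chr12:26456543-26456592: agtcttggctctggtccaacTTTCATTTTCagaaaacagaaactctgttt
Eif2ak2, chr17:78882535-78882564: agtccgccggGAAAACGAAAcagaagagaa

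Of the genes with these letters, Isg15 and Rsad2 had log2 ratios of 2.03 and 2.09, Bst2 1.11 and Eif2ak2 0.49, while Cmpk2, Isg20 and Herc6, whose windows lack them, had 1.74, 1.73 and 1.41. Among the 8892 tested genes with a window, the letters were present for 45 of 194 genes that were higher by the size rule, or 23.2%. They were present for 301 of the 8698 others, or 3.46%. The genes higher by the rule include members of the group. Over all tested genes with a window, the median log2 ratio was 0.12 with the letters and 0.0018 without. A second motif, TTCNNNGAA, the letters of the gamma-activated sequence that STAT pairs bind, was present for 3 members, namely Isg20, Bst2 and Eif2ak2. Its match in Bst2 overlapped the paired GAAA letters. This motif was present for 8.29% of the tested genes with a window, for 9.79% of the genes higher in TKO and for 8.25% of the others. Counted by window, it was in 8.30% of all windows. A match of letters is a description of the sequence, and binding was not measured.

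**Figure D4:**
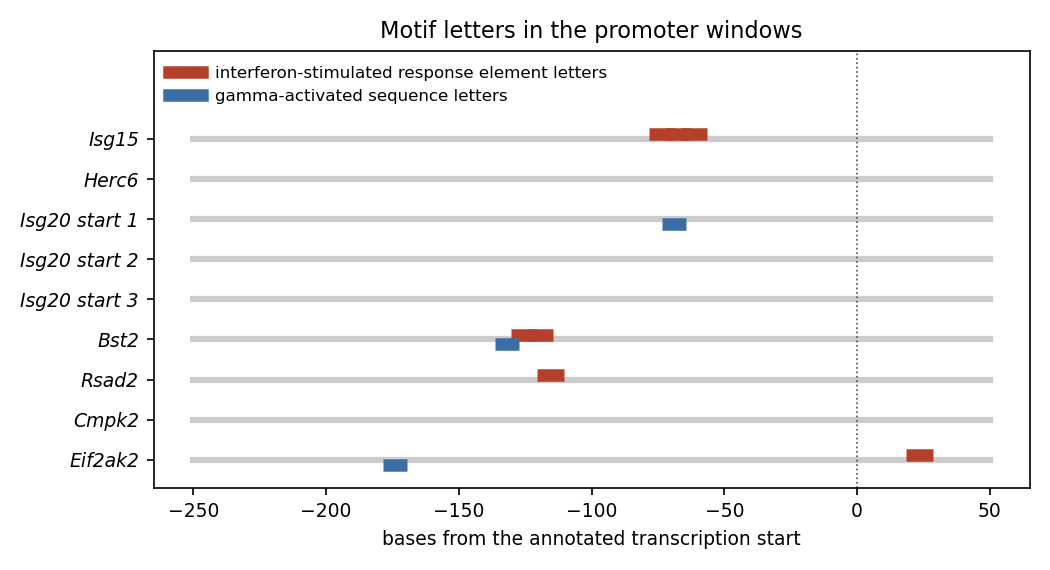
Positions of the paired GAAA letters of the interferon-stimulated response element (red) and the TTCNNNGAA letters of the gamma-activated sequence (blue) in the 9 promoter windows of 7 genes, in bases from the annotated start (dotted line). The red letters are present for Isg15, Bst2, Rsad2 and Eif2ak2, and for Isg20 the 3 windows are those of its 3 annotated starts.

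Seed sites were examined because the TKO label names microRNA clusters, and microRNAs act mainly through seed matches in 3′ untranslated regions. The clusters encode 4 seed families, and members of the miR-17 and miR-25/92 families are shown as RefSeq gives them on GRCm38.p6, with the seed, bases 2 to 8, in capitals. The first and the third lie in mir-17~92 on the plus strand of chromosome 14, and the others in mir-106b~25 on the minus strand of chromosome 5.
mmu-miR-17-5p, chr14:115043684-115043706: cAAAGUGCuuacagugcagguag
mmu-miR-106b-5p, chr5:138165787-138165807: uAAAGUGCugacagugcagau
mmu-miR-92a-3p, chr14:115044476-115044496: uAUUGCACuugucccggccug
mmu-miR-25-3p, chr5:138165332-138165353: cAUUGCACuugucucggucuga
In the longest GENCODE M21 3′ untranslated region of each of the 10 genes, a match to bases 2 to 8 of any family was found in 3. Cmpk2 and Eif2ak2 each had 1 site for the miR-17 family and Mx1 had 1 for the miR-25/92 family, and none of the 10 had a site for miR-18 or miR-19. Capitals mark the sites below, each given with its place in the untranslated region.
Cmpk2, miR-17 site, bases 836 to 842 of 1708: attatcatGCACTTTgaatgtct
Eif2ak2, miR-17 site, bases 2370 to 2376 of 2575: ttctcaaaGCACTTTggaccttt
Mx1, miR-25/92 site, bases 32 to 38 of 1105: tggtcgctGTGCAATgatccttt
Of 10763 tested genes with such a region, 34.2% had a site for at least 1 of the families, 14.9% for miR-17 and 7.61% for miR-25/92. The regions searched were 160 to 2660 bases long in the group, with a median of 752.5 against 1219 bases in the tested genes. The genes with a site held both the largest ratio of the group, that of Mx1, and the smallest, that of Eif2ak2, and 7 genes without a site lay between.

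Isg15, Usp18 and Herc6 encode the tag, the protease and the ligase of a system that attaches a ubiquitin-like protein to other proteins. Isg15 (Entrez 100038882, chr4:156199424-156200818, minus strand), the tag itself, had 773 counts and 99.1 FPKM in TKO, against 198 counts and 24.9 FPKM in WT, and was 4.09-fold higher (3.49 to 4.80). Usp18 (Entrez 24110, chr6:121245906-121270917, plus strand) removes Isg15 from its targets and also restrains signalling at the interferon receptor. It had 660 counts and 34.9 FPKM in TKO, against 159 counts and 8.26 FPKM in WT, and was 4.34-fold higher (3.65 to 5.20). Herc6 (Entrez 67138, chr6:57581000-57664632, plus strand), the main ligase for Isg15 in mice, had 1024 counts and 18.0 FPKM in TKO, against 402 counts and 6.93 FPKM in WT, and was 2.67-fold higher (2.37 to 3.00). The tag and its protease thus differed by similar folds, with overlapping intervals, and the FPKM of Isg15 over that of Usp18 was 2.84 in TKO and 3.01 in WT. The ligase was higher by a smaller fold than both.

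The other enzymes of the Isg15 pathway were uneven. Of 4 listed, 1 was higher by the size rule and none lower, with a median log2 ratio of 0.38. The shares of all genes tested were 2.43% higher and 2.3% lower. Ube2l6, the conjugating enzyme, had 1419 counts in TKO and 535 in WT, 2.78-fold more (log2 ratio 1.47, 1.33 to 1.62). Uba7, the activating enzyme, had 1213 counts in TKO and 716 in WT, a log2 ratio of 0.83 that did not reach the size rule. The ligases Trim25 and Arih1 had log2 ratios of -0.07 and -0.17. Uba7 and Arih1 were named after their values were seen. The 12 listed ubiquitin and ubiquitin-like genes, relatives of Isg15, had log2 ratios of 0.05 to 0.36 and none passed the size rule. Ubb, the most abundant, had 14907 counts in TKO and 12462 in WT. Their median was 0.18, and it was -0.014 once the length trend was taken out. Of the other HERC ligase genes, Herc1, Herc2, Herc3 and Herc4, none passed the size rule and all 4 log2 ratios were below 0, with a median of -0.56, and of -0.19 once the length trend was taken out. Herc4, the most abundant of them, had 962 counts in TKO and 1018 in WT, a log2 ratio of -0.02.

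Rsad2 and Cmpk2 are neighbours on chromosome 12 whose products act on pyrimidine nucleotides. Rsad2 (Entrez 58185, chr12:26442746-26456452, minus strand) encodes viperin, which converts CTP into a chain terminator of viral RNA synthesis. It had 1042 counts and 25.6 FPKM in TKO, against 256 counts and 6.18 FPKM in WT, and was 4.26-fold higher (3.71 to 4.90). Cmpk2 (Entrez 22169, chr12:26469204-26479837, plus strand) is a mitochondrial kinase of pyrimidine monophosphates. It had 931 counts and 27.0 FPKM in TKO, against 292 counts and 8.31 FPKM in WT, and was 3.34-fold higher (2.92 to 3.82). The genes lie head to head with 12751 bases between them. The FPKM of Rsad2 over that of Cmpk2 was 0.949 in TKO and 0.744 in WT, and their intervals overlapped. Among 12 other genes of pyrimidine nucleotide metabolism none passed the size rule in either direction, and the median log2 ratio was 0.05, or -0.10 with the length trend removed. Cmpk1, the cytosolic relative of Cmpk2, named after its values were seen, had 1312 counts in TKO and 1393 in WT, a log2 ratio of -0.02 (-0.13 to 0.09). Nme2, the most abundant of these genes, had a log2 ratio of 0.13.

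Mx1 and Mx2 lie side by side on chromosome 16 and encode GTPases that assemble on incoming viral components. The common laboratory strains of the C57BL/6 type carry a defective Mx1 allele, as textbook background, and GENCODE annotates Mx2 as a polymorphic pseudogene, so their transcripts need not stand for working protein. Mx1 (Entrez 17857, chr16:97447035-97462907, minus strand) had 530 counts and 17.8 FPKM in TKO, against 96 counts and 3.19 FPKM in WT, and was 5.78-fold higher (4.64 to 7.26). Mx2 (Entrez 17858, chr16:97535308-97560900, plus strand) had 160 counts and 6.19 FPKM in TKO, against 45 counts and 1.72 FPKM in WT, and was 3.72-fold higher (2.66 to 5.30). The interval of Mx2, which had few counts, was wide and overlapped that of Mx1. The estimated counts of both genes were not whole numbers in either library, as happens when reads are divided among similar transcripts, so the division between the pair is uncertain. Summed, the pair had 690 counts in TKO and 141 in WT, 5.12-fold higher (4.27 to 6.18). The dynamin genes, which encode related GTPases of membrane fission, had no member past the size rule among the 3 tested of 4. Dnm2, the most abundant, had 2910 counts in TKO and 2847 in WT, a log2 ratio of 0.10 (0.02 to 0.17).

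Bst2 (Entrez 69550, chr8:71534255-71537456, minus strand) encodes tetherin, a membrane protein that retains budding virions. It had 2067 counts and 229.7 FPKM in TKO, against 1005 counts and 109.6 FPKM in WT, and was 2.15-fold higher (2.00 to 2.32). Its fold was among the smallest of the group while its difference in level, 120.2 FPKM more in TKO, was the largest of the 10. With the length trend removed its log2 ratio was 0.89, below the 2-fold threshold, so this call depends on that setting, under which 8 of the 10 genes and 2.34% of all genes were higher. In mice Bst2 also marks plasmacytoid dendritic cells. Of 6 listed markers of those cells only Tcf4 reached 20 counts, with 1750 in TKO and 1824 in WT, and it supplied 22.6 of the list's summed 23.9 FPKM in TKO and 23.0 of 23.6 in WT. The other 5 markers summed to 1.33 FPKM and 26 counts in TKO, against 0.59 FPKM and 16 counts in WT. Siglech, a defining receptor of these cells, had 6 counts in TKO and 4 in WT, and Ccr9, another, 2 in each. Pacsin1 had 9 counts in TKO and 4 in WT, Cox6a2 had 5 in TKO and 1 in WT, and Spib had 4 in TKO and 5 in WT. The part of these cells in the Bst2 difference was not tested. None of the 6 was at 0 counts in either library.

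Isg20 (Entrez 57444, chr7:78913424-78920396, plus strand) encodes an exonuclease that degrades single-stranded RNA. It had 114 counts and 10.4 FPKM in TKO, against 36 counts and 3.05 FPKM in WT, and was 3.31-fold higher (2.26 to 4.96). It rested on the fewest counts of the group, and its interval was the widest on the log scale. None of the other 3 exonuclease genes of its family reached 2-fold, and their median log2 ratio was -0.03. Aen, which lies 2215 bases from Isg20, had 196 counts in TKO and 156 in WT, a log2 ratio of 0.39, and Rexo4, the most abundant of the 3, had -0.08.

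Eif2ak2 (Entrez 19106, chr17:78852564-78882573, minus strand) encodes PKR, a kinase that binds double-stranded RNA and phosphorylates the initiation factor eIF2. It had 1516 counts and 32.4 FPKM in TKO, against 1131 counts and 23.8 FPKM in WT, and was 1.40-fold higher (1.30 to 1.52). It was the 1 gene of the group that did not reach the size rule, and its interval lay below those of the other 9. The estimated counts were not whole in either library. The 12 listed eIF2 kinases, subunits and downstream genes had no member that met the size rule, and their median log2 ratio was 0.09. The sister kinases Eif2ak1, Eif2ak3 and Eif2ak4, named after their values were seen, had log2 ratios of 0.08, -0.39 and -0.30. Atf4, the most abundant of the list and a transcription factor translated when eIF2 is phosphorylated, had a log2 ratio of 0.26.

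Neighbouring genes were compared to show whether a difference extended over a locus. The nearest tested genes on each side of the members, other than members themselves, numbered 16, of which 1 was higher and 0 lower by the size rule. For comparison, 2.43% of all genes tested were called higher. The median log2 ratio of the 16 was 0.08, and 11 of them were within 0.5 of 0. Not all of them lay close to their member. Id2 was 1345606 bases from Rsad2, Dcdc2c 1957958 from Cmpk2, Wrb 1289183 from Mx1 and Prdm15 230567 from Mx2. Whether a difference extended beyond the members at the Rsad2 and Cmpk2 locus or the Mx locus was therefore not tested. Agrn, 1936 bases from Isg15, had 305 counts in TKO and 306 in WT, a log2 ratio of 0.06 (-0.17 to 0.29). Mvb12a, 5466 bases from Bst2, had 910 counts in TKO and 594 in WT, a log2 ratio of 0.68 (0.53 to 0.83). The neighbour past the size rule was Gm6548, which GENCODE annotates as a processed pseudogene and which lies 608 bases beyond the 3′ end of Eif2ak2. It had 42.4 FPKM in TKO and 15.2 FPKM in WT, a count-based log2 ratio of 1.52 (1.34 to 1.70), larger than the 0.49 of Eif2ak2 itself. Reads of a processed pseudogene can be assigned to its parent gene or to the copy, so these counts are uncertain. GENCODE also places genes across parts of Usp18, Eif2ak2 and Herc6, such as the antisense transcripts Gm44148 in Usp18 and Gm26637 in Eif2ak2. No source used here states whether counting used the strand, so reads of such overlapping stretches cannot be told apart. Agrn, Mvb12a and Aen are given as examples chosen after their values were seen.

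**Figure D5:**
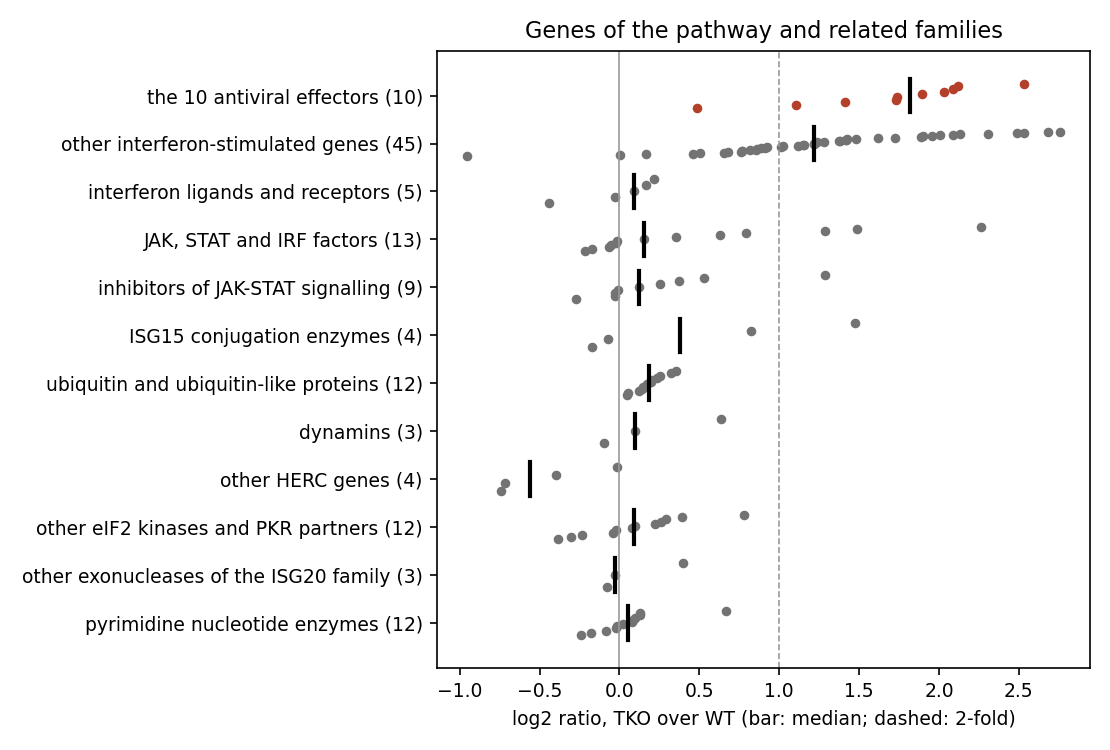
Log2 ratio of TKO over WT for each tested gene (points) of the antiviral effectors (red) and of 11 other lists (grey), with the number tested in parentheses, the median as a bar and 2-fold as a dashed line. The effectors have a median of 1.82 and the other interferon-stimulated genes 1.22, while the medians of the remaining lists lie between -0.56 and 0.38.

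Other interferon-stimulated genes were higher in TKO in large part. Of 45 tested, 29 were higher by the size rule and 0 lower, and 44 had a log2 ratio above 0, with a median of 1.22. Of all genes tested, 2.43% were higher by this rule, 2.3% were lower and 50.6% had a log2 ratio above 0. The list of other interferon-stimulated genes was drawn up with earlier results of these data known, so its direction is not independent evidence. Ifit3, which binds viral RNA together with Ifit1, had 2844 counts in TKO and 440 in WT, 6.76-fold more. Zbp1, which senses Z-form nucleic acids, had 1319 counts in TKO and 215 in WT, 6.42-fold more. Ifit1 had 1599 counts in TKO and 289 in WT, 5.79-fold more. These were the largest ratios of the list. Ifi27 was the exception, with 183 counts in TKO and 371 in WT, a log2 ratio of -0.95 (-1.22 to -0.69), and it was named after its value was seen. Ifitm3, the most abundant of them and a restrictor of virus entry, had 8734 counts in TKO and 4865 in WT, a log2 ratio of 0.91.

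The transcription factors that act on these promoters were partly higher in TKO, and the receptors and kinases that precede them were not called. Among 13 JAK, STAT and IRF genes, 3 were higher by the size rule and none lower, and the median log2 ratio was 0.16. The shares of all genes tested were 2.43% higher and 2.3% lower. Irf7, which amplifies interferon production, had 2556 counts in TKO and 557 in WT, a log2 ratio of 2.26. Stat2 had 2326 counts in TKO and 870 in WT, 2.80-fold more. Irf5, the most abundant of them, had a log2 ratio of -0.05. Of the interferon ligand and receptor genes 5 of 12 were measured, all of them receptor genes, and none passed the size rule. Their median was 0.09, and -0.03 with the length trend removed. The receptor genes Ifnar1 and Ifnar2, named after their values were seen, had log2 ratios of -0.44 and 0.09, and Il10rb, the most abundant, 0.17. The other 7 genes of that list, which include all the ligands, had no entry under their symbols among the deposited genes, so their levels were not compared. Among inhibitors of the pathway, 1 of 9 tested was higher, against 2.43% of all genes tested. It was Socs1, with 28 counts in TKO and 12 in WT. That call was lost, leaving 0 of the list, with 1 added to FPKM, a minimum of 100 counts, a 4-fold threshold or a wider interval. Ptpn6, the most abundant of them, had a log2 ratio of 0.26, and the median of the list was 0.12.

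In the authors' deposited table all 10 effectors had an FDR of at most 0.05 and a log2 ratio above 0, against 10.8% of its genes, and 9 of them also had a log2 ratio of at least 1, against 1.82% of all genes in that table. The p-value of the authors' deposited table was 1.91e-116 for Rsad2 and 3.49e-11 for Isg20, the smallest and the largest of the group. No source used here names the test behind the authors' deposited table, and with 1 library per genotype it can reflect no spread between cultures.

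The libraries held 10656454 counts in TKO and 10877913 in WT after rounding. Mir17hg, the host transcript of mir-17~92, had 42 counts in TKO and 8 in WT, 5.49-fold more, and Mcm7, which carries mir-106b~25 in an intron, had 1083 in TKO and 1228 in WT. Counts over whole host genes do not resolve the deleted segments, so the genotype labels were not checked by them. Macrophage markers were abundant, with a summed FPKM of 3790 in TKO and 3543 in WT over 8 genes, none past the size rule. Fibroblast and stroma markers were lower in TKO, with 6 of 9 tested past the size rule, against 2.3% of all genes. Their summed FPKM over 10 genes was 28.7 in TKO and 97.3 in WT. Of the conventional dendritic cell markers, 3 of 4 tested were higher by the rule, against 2.43% of all genes. They were Itgax and, close to the 20-count minimum, Flt3 (27 counts in TKO, 10 in WT) and Dpp4 (22 and 8). Xcr1 was tested but not called (34 and 25). Below the minimum, Zbtb46 had 3 counts in TKO and 5 in WT, Clec9a 4 and 1, and Cd209a 0 and 1. The summed FPKM over 7 genes was 21.6 in TKO and 8.93 in WT, where Itgax made up 19.5 and 7.75. The lists for neutrophils, B cells and T and NK cells had 1 tested member each, S100a8, Cd79b and Cd4, with log2 ratios of 1.29, -0.37 and -1.29. Their summed FPKM were 9.28, 1.78 and 1.43 in TKO, against 4.81, 2.25 and 2.59 in WT. Camp and Pax5 were at 0 counts in TKO, and Elane, Ms4a1 and Ncr1 in WT. These markers moved beside the antiviral effectors, and their part in the result was not tested.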

How the data were processed

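Marrow cells grew for 5 days in 10% serum and 10% L929 supernatant, and polyadenylated RNA gave 1 library per genotype, per the labels' protocols. The submitters' processing notes name RSEM 1.2.12, HISAT2 2.0.4, Bowtie2 2.2.5 and mm10 without roles. The authors deposited expected counts per gene, of which 21.1% in TKO and 21.3% in WT were fractional. FPKM is the unit per the file headers, and the authors list a gene without counts at 0.01. The log2 ratio in the authors' table equals that of TKO over WT FPKM. How the authors computed their p-value is unstated, and since 713 deposited FDR values lie above 1 they were handled as a score, as was the deposited gene length in bases.

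Expected counts were rounded and scaled with TMM factors (0.988 for TKO, 1.01 for WT; edgeR 4.0.16, R 4.3.3). In a ratio, a count of 0 was set to 3. Intervals are exact conditional binomial (Clopper-Pearson) at 95%, from SciPy 1.17.1. They cover counting error only, because each genotype had 1 library, and no test was run. Reads lack molecular identifiers, so the counts are of reads and not of molecules. Simulated counts with counting error alone were used to check the rule, so spread between cultures was not covered. A single row without a symbol was left out. Coordinates came from GENCODE M21 (GRCm38, the assembly behind mm10). The length trend was a lowess fit (span 0.3, statsmodels 0.14.6). Alternatives were library totals, DESeq2 1.42.0 size factors, FPKM with and without 1 added, other count minimums, thresholds and intervals, and the length trend removed. The sum of Mx1 and Mx2 was added after seeing the data. The members, the 11 pathway lists and the 7 marker lists were chosen with earlier results of these data known. All members were named, and in each pathway list at most 4 genes, the largest ratios past the size rule and the most abundant gene. Genes outside this rule are said to be named after their values were seen, and markers are named for their low or high counts. Some genes that this rule would name are not reported here.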

Additional observations from a re-analysis of the deposited data

How the results depend on the processing

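The count of 9 effectors higher in TKO, and 0 lower, held with library totals, DESeq2 size factors, FPKM with and without 1 added, no count minimum, a minimum of 100 counts, a 1.5-fold threshold and a wider interval. It was 8 with the length trend removed, where Bst2 was lost, and 4 at a 4-fold threshold. The median log2 ratio of the group ranged between 1.54 with FPKM plus 1 and 1.82. No log2 ratio of a member changed sign. With FPKM plus 1, the values of Mx1, Rsad2 and Mx2 were 2.16, 1.89 and 1.40, where the added 1 shrinks low values. With the length trend removed Herc6 was at 1.59.

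Over all genes, 280 were higher and 265 lower. A minimum of 100 counts gave 164 higher and 95 lower, a 1.5-fold threshold 591 and 638, and a 4-fold threshold 76 and 26. The count of lower genes was 122 with FPKM plus 1 and 175 with the wider interval. No paired analysis was possible because each genotype had 1 library, and for the same reason no replicate could be left out. Depth limits Isg20 and Mx2 most, with 36 and 45 counts in WT.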
